A study of Homo sapiens with 17 samples.

Results

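The 10 genes described here encode subunits of Polycomb repressive complex 2 (PRC2) and the demethylases that reverse its mark. They are EZH1, EZH2, EED, SUZ12, JARID2, MTF2, PHF19, AEBP2, KDM6A and KDM6B, and they were chosen by gene symbol from the 34496 gene rows of the count table. RNA was sequenced in 10 libraries from human squamous carcinoma lines of the head and neck. The EPZ group holds 2 libraries of Cal27, a tongue squamous cell carcinoma line, that are labelled NSD1 knockout and received EPZ-6438 (tazemetostat, called EPZ below), a small molecule that inhibits EZH2. The knockout DMSO group holds 2 libraries of the same labelled NSD1 knockout with DMSO, the solvent control. The Cal27 DMSO group holds 2 libraries of the parental line with DMSO. A separate untreated set holds 1 library each of the labelled NSD1 knockout, of SKN3 and BICR78, which are other lines of the same cancer type, and of parental Cal27. The labels name a single knockout line, so an effect of the deletion and a property of that line cannot be told apart, and the inhibitor was given only to the labelled knockout. The labels read here give neither dose nor time.

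PRC2 places methyl groups on H3K27, a mark of silenced chromatin. EZH2 or its paralogue EZH1 is the catalytic subunit, EED and SUZ12 complete the core, and accessory subunits define alternative forms, one with JARID2 and AEBP2 and one with a Polycomb-like protein such as MTF2 or PHF19. KDM6A (also called UTX) and KDM6B (also called JMJD3) remove the mark, and NSD1 places H3K36me2, a mark known to hinder PRC2 on the same histone tail. EZH2 expression is commonly linked to proliferation, and KDM6A is recurrently mutated in several epithelial cancers.

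Total counts per library were 11745655 to 15509079 in the 6 DMSO and EPZ libraries and 17587063 to 21738951 in the 4 untreated ones. Levels are given in CPM, the counts of a gene scaled to the size of its library with TMM factors, computed over the 6 libraries for the first set and over all 10 for the untreated set, so levels are compared within a set. NSD1 went against the knockout label at the RNA level. Its level was 160.2 and 149.1 CPM in knockout EPZ libraries and 163.6 and 161.8 CPM in knockout DMSO libraries, against 112.6 and 113.5 CPM in Cal27 DMSO libraries, and 205.2 CPM in the untreated knockout against 150.3 CPM in untreated Cal27. The whole-gene count does not show whether a functional protein is made, and "knockout" below means the libraries labelled so. The 12 squamous epithelial markers were detected in every library, and their summed level was 3335 to 3352 CPM in knockout EPZ, 4616 to 4749 CPM in knockout DMSO and 9814 to 9890 CPM in Cal27 DMSO libraries. KRT5 alone was at 861.1 and 876.7 CPM in knockout EPZ and 1882 and 1956 CPM in knockout DMSO libraries. In the edgeR test used below, 5 of the 12 rose and 7 fell with EPZ against knockout DMSO. Their median log2 change was -0.16, and 25.6% of all genes were higher and 23.9% lower. Of 9 immune markers, CD2 and MS4A1 were at 0 in all 10 libraries, but the sum moved with the groups through CD68, LAPTM5 and CD14, at 227.9 to 234.1 CPM in knockout EPZ, 175.4 to 179.5 CPM in knockout DMSO and 81.59 to 81.91 CPM in Cal27 DMSO libraries. The summed fibroblast markers were at 21.24 to 25.26 CPM in knockout EPZ, 7.415 to 9.934 CPM in knockout DMSO and 18.97 to 20.57 CPM in Cal27 DMSO libraries, with PDGFRA and THY1 at no more than 3 counts in any library. The summed endothelial markers were at 26.30 to 28.82 CPM in knockout EPZ, 20.59 to 22.87 CPM in knockout DMSO and 17.34 to 17.58 CPM in Cal27 DMSO libraries. In the untreated knockout, SKN3, BICR78 and Cal27, in that order, the endothelial sum was 87.32, 24.69, 9.181 and 5.556 CPM. The squamous sum was 5024, 10710, 17750 and 28120 CPM in the same order. The immune sum was 199.4, 11.97, 35.74 and 73.96 CPM, and the fibroblast sum 27.26, 54.79, 58.85 and 26.87 CPM. Of the endothelial sum, CDH5 alone gave 86.86 CPM in the untreated knockout and VWF alone 23.34 CPM in SKN3. VWF was at 0.1374 CPM in the untreated knockout and CDH5 at 0.05414 CPM in SKN3, so that sum followed single genes. The part of these shifts in the results below was not tested. No label says that replicates came from separate cultures, so the p-values may reflect technical spread alone. In bulk RNA fewer cells of a kind and less RNA per cell cannot be told apart.

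All 10 genes were expressed in every library and all passed the low-count filter. The smallest count of any of them in any library was 289 and the largest 2137. Across the 6 DMSO and EPZ libraries none of the 10 varied by more than 1.5-fold between its lowest and its highest level, and KDM6A came closest, at 1.49-fold. Across the 4 untreated libraries 8 of the 10 did, led by SUZ12 at 2.31-fold, while PHF19 varied by 1.06-fold. The share of all genes past the same range was not computed for either set. In untreated SKN3 against untreated Cal27 alone, 58.6% of 13479 genes passed 1.5-fold, so these counts do not set the 10 genes apart.

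**Figure D1:**
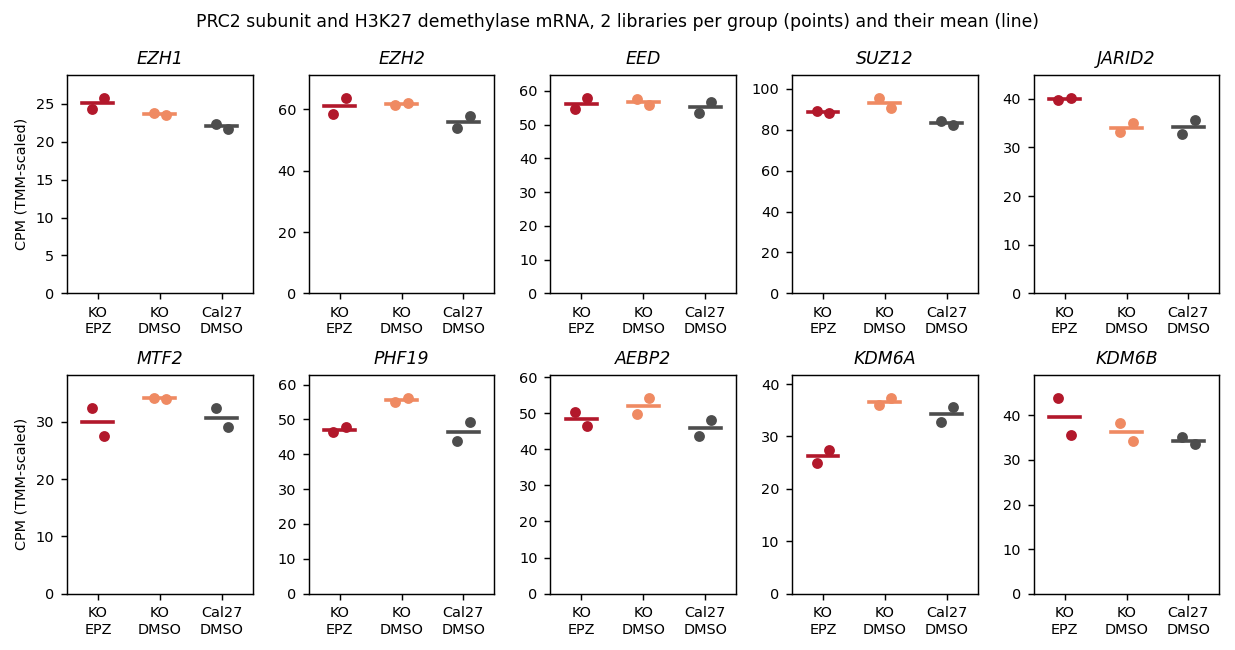
Level of each of the 10 genes (vertical axis, TMM-scaled CPM from 0) in knockout EPZ, knockout DMSO and Cal27 DMSO libraries (horizontal axis); points are the 2 libraries of a group and the line is their mean. KDM6A is at 25.03 and 27.36 CPM in the EPZ libraries, below the other 4 libraries, and JARID2 at 39.79 and 40.14 CPM, above the other 4.

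The first comparison sets the knockout against parental cells, both with DMSO, and asks whether the transcripts of the H3K27 machinery differ in the cells labelled as lacking NSD1. They differed little. Of the 10 genes, 2 rose, SUZ12 and PHF19, and none fell, each at a Benjamini-Hochberg adjusted p below 0.05 in edgeR's quasi-likelihood test over 13241 genes. Over all tested genes 35.9% passed the same threshold, 16.4% upwards and 19.5% downwards, so the count of 2 is not above the background. The median log2 change was 0.12 over the 10 genes and -0.01 over all tested genes. The 2 libraries of each group did not overlap for 7 of the 10 genes, against 67.2% of all genes not overlapping in either direction. The knockout was the higher in all 7, and the share of all genes with the knockout higher was not computed.

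Among the core subunits, SUZ12, which is needed for PRC2 assembly and stability, was at 95.56 and 90.64 CPM in knockout DMSO libraries and 84.10 and 82.26 CPM in Cal27 DMSO libraries. Both knockout libraries lay above both Cal27 libraries. The fitted log2 change was 0.16 ± 0.05 (SE, n = 2 each; adjusted p = 0.0131). This call was lost with DESeq2 (adjusted p = 0.058), without Cal27 DMSO replicate 2 (0.0853), without knockout DMSO replicate 1 (0.134) and with the untreated pair added and the set as a covariate (0.0528). SUZ12P1, a near-identical pseudogene copy, carried 78 to 199 counts per library, so some reads could belong to either locus.

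EED, which binds trimethylated H3K27 and helps spread the mark, did not pass the test. It had 57.45 and 55.94 CPM in knockout DMSO libraries and 53.54 and 56.62 CPM in Cal27 DMSO libraries, and the groups overlapped. The log2 change was 0.04, with a 95% interval of -0.08 to 0.17.

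Neither catalytic subunit passed the test. EZH2 was at 61.30 and 61.99 CPM in knockout DMSO libraries and 54.05 and 57.73 CPM in Cal27 DMSO libraries, which did not overlap. Its log2 change was 0.14 ± 0.06 (SE; adjusted p = 0.0765), with an interval of 0.02 to 0.27. EZH1, the paralogue that predominates in non-dividing cells, was at 23.79 and 23.54 CPM in knockout DMSO libraries and 22.32 and 21.71 CPM in Cal27 DMSO libraries. Its log2 change of 0.10 had an interval of -0.08 to 0.29.

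PHF19, a Polycomb-like subunit whose Tudor domain binds H3K36 methylation and brings PRC2 to chromatin, showed the larger of the 2 increases. It was at 55.14 and 56.08 CPM in knockout DMSO libraries and 43.76 and 49.21 CPM in Cal27 DMSO libraries, and the Cal27 libraries lay further apart from each other than the knockout ones. The log2 change of PHF19 was 0.26 ± 0.06 (SE; adjusted p = 0.00462). The call was lost without Cal27 DMSO replicate 1 (adjusted p = 0.0864) and with the untreated pair added (0.211). PHF19 overlaps TRAF1 on the annotation, and TRAF1 held 98 and 127 counts in knockout DMSO libraries and 127 and 112 in Cal27 DMSO libraries.

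The other accessory subunits did not pass. AEBP2, a zinc-finger subunit that stabilises the complex, was at 49.82 and 54.14 CPM in knockout DMSO libraries and 43.76 and 48.02 CPM in Cal27 DMSO libraries. Its log2 change of 0.18 ± 0.07 (SE) fell just short (adjusted p = 0.0502), and 9 of 15 other settings that test against no change called it. MTF2, the other Polycomb-like subunit, which binds unmethylated CpG-rich DNA, was at 34.11 and 34.05 CPM in knockout DMSO libraries and 32.46 and 29.05 CPM in Cal27 DMSO libraries. Its interval was -0.03 to 0.33. JARID2, a catalytically inactive member of the Jumonji family that docks PRC2 on chromatin, was at 33.11 and 34.99 CPM in knockout DMSO libraries and 32.75 and 35.57 CPM in Cal27 DMSO libraries. Its groups overlapped, with a log2 change of 0.00 and an interval of -0.16 to 0.15.

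Neither demethylase passed the test in this comparison. KDM6A, which also sits in the enhancer-marking KMT2C and KMT2D complexes, was at 36.04 and 37.29 CPM in knockout DMSO libraries and 32.68 and 35.72 CPM in Cal27 DMSO libraries (log2 change 0.10, interval -0.06 to 0.26). KDM6B, an inducible demethylase known for its response to inflammatory signals, was at 38.27 and 34.20 CPM in knockout DMSO libraries and 35.08 and 33.57 CPM in Cal27 DMSO libraries, which overlapped (log2 change 0.08, interval -0.12 to 0.27).

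The second comparison sets the knockout with EPZ against the knockout with DMSO, and so follows the transcripts of the complex when the enzyme itself is inhibited. KDM6A and PHF19 fell and JARID2 rose; the other 7 genes, EZH2 among them, did not pass. Over all 13241 genes 49.6% passed the threshold, 25.6% upwards and 23.9% downwards, so 3 of 10 is below that share. The median log2 change was -0.04 over the 10 genes and 0.00 over all genes, and the median size of change, without regard to sign, was 0.12 against 0.23. The groups did not overlap for 6 of the 10 genes, against 73.6% of all genes.

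KDM6A showed the largest change of the 10. It was at 25.03 and 27.36 CPM in knockout EPZ libraries and 36.04 and 37.29 CPM in knockout DMSO libraries. Both EPZ libraries lay well below both DMSO libraries. The log2 change was -0.48 ± 0.08 (SE, n = 2 each; adjusted p = 8.02e-05), a fold of 0.717. It stayed called in 14 of 14 alternative settings that test against no change, with log2 changes of -0.55 to -0.42, and was not called against a log2 fold of 0.5. Of all tested genes, 24.9% had a larger change in either direction.

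KDM6B, the other demethylase, did not pass the test. It was at 43.83 and 35.50 CPM in knockout EPZ libraries and 38.27 and 34.20 CPM in knockout DMSO libraries, overlapping, with the first EPZ library the highest of the 4. The log2 change was 0.12, with an interval of -0.07 to 0.31, and it reached 0.27 (adjusted p = 0.0255) without EPZ replicate 2. KDM6A made up 36.35% and 43.52% of the counts of the KDM6A and KDM6B pair in knockout EPZ libraries, against 48.50% and 52.17% in knockout DMSO libraries and 48.22% and 51.55% in Cal27 DMSO libraries.

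PHF19 was at 46.44 and 47.78 CPM in knockout EPZ libraries and 55.14 and 56.08 CPM in knockout DMSO libraries. The groups were apart and the spread within each was small. Its log2 change was -0.24 ± 0.06 (SE; adjusted p = 0.00559), called in 14 of 14 alternatives that test against no change. TRAF1, which overlaps it, had 82 and 106 counts in knockout EPZ libraries and 98 and 127 in knockout DMSO libraries.

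JARID2 was at 39.79 and 40.14 CPM in knockout EPZ libraries and 33.11 and 34.99 CPM in knockout DMSO libraries, again with no overlap. The log2 change was 0.23 ± 0.07 (SE; adjusted p = 0.0122). The call was lost with DESeq2 (adjusted p = 0.0826), without knockout DMSO replicate 1 (0.0957) and without EPZ replicate 2 (0.0642), and the log2 change stayed between 0.19 and 0.27.

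The transcript of EZH2, the target of EPZ, did not pass the test. EZH2 was at 58.41 and 63.68 CPM in knockout EPZ libraries and 61.30 and 61.99 CPM in knockout DMSO libraries, and the EPZ libraries lay on either side of the DMSO ones. Its log2 change was -0.01, with a 95% interval of -0.13 to 0.12. EED was at 54.62 and 57.89 CPM in knockout EPZ libraries and 57.45 and 55.94 CPM in knockout DMSO libraries, with a log2 change of -0.01 and an interval of -0.13 to 0.12.

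The remaining subunits did not pass either. SUZ12 was at 89.43 and 88.36 CPM in knockout EPZ libraries and 95.56 and 90.64 CPM in knockout DMSO libraries (log2 change -0.07, interval -0.17 to 0.03). EZH1 was at 24.36 and 25.76 CPM in knockout EPZ libraries and 23.79 and 23.54 CPM in knockout DMSO libraries (log2 change 0.09, interval -0.09 to 0.26). MTF2 was at 32.45 and 27.48 CPM in knockout EPZ libraries and 34.11 and 34.05 CPM in knockout DMSO libraries. Its log2 change of -0.20 ± 0.09 (SE) had an adjusted p of 0.0712, and without EPZ replicate 1, the higher of its 2 libraries, the log2 change was -0.31 (adjusted p = 0.0154). AEBP2 was at 50.24 and 46.44 CPM in knockout EPZ libraries and 49.82 and 54.14 CPM in knockout DMSO libraries, with overlap (log2 change -0.11, interval -0.26 to 0.03).

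**Figure D2:**
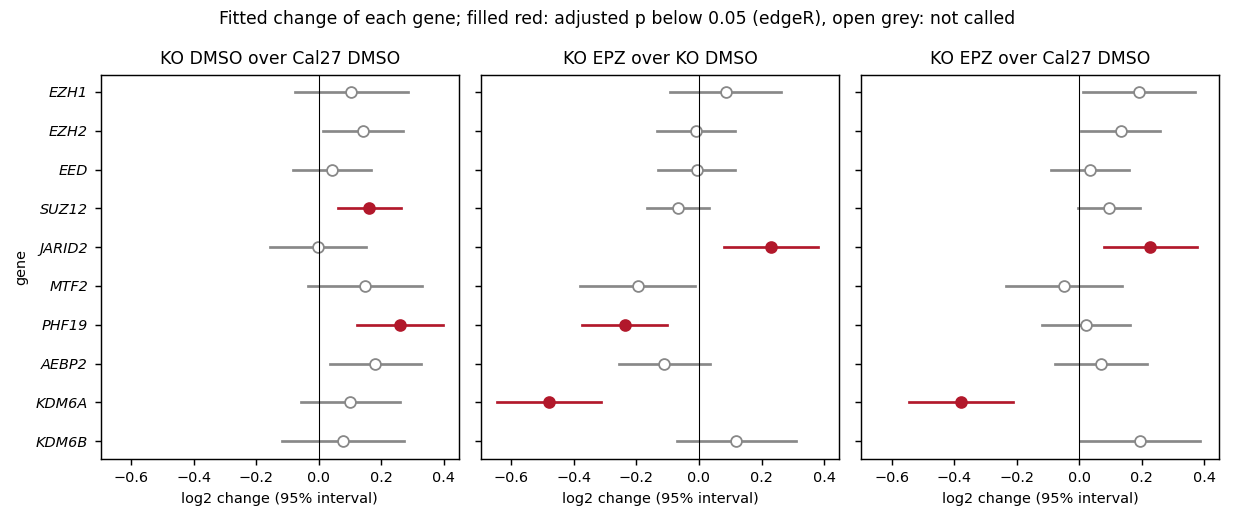
Fitted log2 change (horizontal axis) of each of the 10 genes (vertical axis) in 3 comparisons, with 95% intervals as lines; filled red points passed an adjusted p of 0.05 and open grey points did not. PHF19 is at 0.26 for knockout over Cal27 and at -0.24 for EPZ over DMSO, and KDM6A at -0.48 is the point farthest from 0.

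Set against parental cells, the knockout with EPZ had higher JARID2 and lower KDM6A, while the other 8 genes did not pass. Over all genes 52% passed, 26.1% upwards and 25.9% downwards, so 2 of 10 is below that share. The groups did not overlap for 6 of the 10 genes, against 74.9% of all genes. The comparison shares libraries with both of the above, so it is not independent of them. JARID2 was at 39.79 and 40.14 CPM in knockout EPZ libraries and 32.75 and 35.57 CPM in Cal27 DMSO libraries (log2 change 0.23 ± 0.07, SE; adjusted p = 0.0124). That call was lost with DESeq2 (adjusted p = 0.0743), without Cal27 DMSO replicate 1 (0.136) and without EPZ replicate 2 (0.0627). KDM6A was at 25.03 and 27.36 CPM in knockout EPZ libraries and 32.68 and 35.72 CPM in Cal27 DMSO libraries (log2 change -0.38 ± 0.08, SE; adjusted p = 0.000683), and was called in 14 of 14 alternatives that test against no change.

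PHF19, called in opposite directions in the first 2 comparisons, was at nearly the same level in the outer groups: 46.44 and 47.78 CPM in knockout EPZ libraries and 43.76 and 49.21 CPM in Cal27 DMSO libraries. The difference was 0.02 on the log2 scale, with an interval of -0.12 to 0.16. The first 2 comparisons share the knockout DMSO libraries, so the opposite calls of PHF19 are not independent. A deviation of those 2 libraries alone could give both calls. EZH1, EZH2, SUZ12 and KDM6B lay above Cal27 DMSO in both EPZ libraries without passing, at log2 changes of 0.19, 0.13, 0.10 and 0.20 and adjusted p-values of 0.0707, 0.0730, 0.105 and 0.0833. EZH2 passed with library size alone (adjusted p = 0.0154), with genes of at least 5 CPM (0.0393) and without EPZ replicate 1 (0.0276). EZH1 and SUZ12 passed with library size alone (0.0239 and 0.0150). KDM6B passed without EPZ replicate 2, the lower of its 2 libraries, at a log2 change of 0.35 (adjusted p = 0.00587), with library size alone (0.0295), with no low-count filter (0.0286) and with genes of at least 5 CPM (0.0479).

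The 4 genes that passed in any comparison are shown with their promoters, 69.2% to 79.2% G or C, from RefSeq (GRCh38.p14) to give the sequence next to each start site. All 10 genes matched the promoter table, with 14 annotated start sites. Each sequence is the 250 bases before a start site, 5′ to 3′ on the strand of the gene; for PHF19 and JARID2, which have more than 1 annotated start, the one holding the E2F or CRE letters is shown. SUZ12 is at chr17:31936757-31937006 (+ strand), PHF19 at chr9:120877189-120877438 (- strand), JARID2 at chr6:15248605-15248854 (+ strand) and KDM6A at chrX:44872938-44873187 (+ strand). Capitals mark matches on either strand to 4 motifs: E2F (TTTNNCGC), CCAAT box (CCAAT), CRE (TGACGTCA) and E-box (CACGTG).
SUZ12: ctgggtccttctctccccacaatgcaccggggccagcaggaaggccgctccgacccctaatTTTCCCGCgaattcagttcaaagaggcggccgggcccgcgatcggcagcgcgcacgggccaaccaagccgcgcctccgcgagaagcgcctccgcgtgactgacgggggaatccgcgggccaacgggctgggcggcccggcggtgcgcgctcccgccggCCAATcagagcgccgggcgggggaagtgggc
PHF19: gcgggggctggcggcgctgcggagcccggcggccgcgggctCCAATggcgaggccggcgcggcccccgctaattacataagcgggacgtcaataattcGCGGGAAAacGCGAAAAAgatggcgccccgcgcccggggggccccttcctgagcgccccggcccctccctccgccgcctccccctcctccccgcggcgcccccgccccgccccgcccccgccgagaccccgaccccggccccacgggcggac
JARID2: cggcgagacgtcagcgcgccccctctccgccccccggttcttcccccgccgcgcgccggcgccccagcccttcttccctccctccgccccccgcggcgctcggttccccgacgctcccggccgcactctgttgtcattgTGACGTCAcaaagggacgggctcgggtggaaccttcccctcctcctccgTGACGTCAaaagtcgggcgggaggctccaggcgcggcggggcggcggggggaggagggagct
KDM6A: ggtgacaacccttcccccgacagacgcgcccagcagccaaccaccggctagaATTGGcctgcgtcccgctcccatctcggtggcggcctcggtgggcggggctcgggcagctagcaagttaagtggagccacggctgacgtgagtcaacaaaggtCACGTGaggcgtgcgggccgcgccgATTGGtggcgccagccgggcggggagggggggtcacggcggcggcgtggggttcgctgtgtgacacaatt
Counting back from -1, the base next to the start, SUZ12 held an E2F match at -189 and a CCAAT match at -31. PHF19 held 2 E2F matches, at -152 and -142, on the reverse strand as GCGNNAAA, and a CCAAT match at -209. JARID2 held 2 CRE matches, at -111 and -62, and no other of the 10 genes held one. KDM6A held the only E-box, at -95, and CCAAT matches on the reverse strand at -198 and -70. The E2F letters were found in 4 of the 10 genes (EZH1, SUZ12, PHF19 and AEBP2), at 4 of the 14 start sites, and in 5.92% of 35116 promoters of the same length. CCAAT was found in 6 of the 10 genes, at 7 of the 14 start sites, and in 32.0% of all promoters, the CRE in 1.65% and the E-box in 6.34%. These are matches of letters and not measured binding. Of the genes described, EZH2 lies at chr7:148807383-148884291, SUZ12 at chr17:31937007-32001038, PHF19 at chr9:120855651-120904128, JARID2 at chr6:15246069-15522042 and KDM6A at chrX:44873188-45112779, all protein-coding.

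The untreated set gives the levels of the 10 genes in 4 lines, with 1 library each, no replicate and no test. Intervals of levels are exact Poisson ones at 95%. Those of ratios are exact binomial ones at 95% from the 2 counts, without the prior count used for the ratio. Both cover counting error alone. In the untreated knockout against untreated Cal27, none of the 10 genes passed 2-fold, against 14.5% of 13479 genes with a mean of at least 1 CPM, 5.46% upwards and 9.04% downwards. EZH1 differed most, at 34.77 CPM (32.34 to 37.34) in the knockout and 23.85 CPM (21.80 to 26.04) in Cal27, a ratio of 1.455 (1.30 to 1.635). The same gene had a log2 change of 0.10 in the DMSO pair. SUZ12 was at 82.60 CPM in the untreated knockout and 68.69 CPM in Cal27, the same direction as with DMSO, at a ratio of 1.202 (1.121 to 1.29). PHF19, which rose in the DMSO comparison, was at 60.06 CPM in the untreated knockout and 60.02 CPM in Cal27. JARID2 was at 36.60 CPM in the untreated knockout and 43.97 CPM in Cal27, a ratio of 0.833 (0.756 to 0.916). EZH2, EED, MTF2, AEBP2 and KDM6A had ratios of 0.950 to 1.05 whose intervals include 1, and KDM6B one of 0.918 (0.847 to 0.994). TRAF1, which overlaps PHF19, had 500 counts in the untreated knockout and 171 in Cal27.

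SKN3 stood apart in the demethylases and in JARID2. KDM6A was at 20.79 CPM (18.76 to 22.98) in SKN3 and 45.31 CPM (42.47 to 48.29) in Cal27, a ratio of 0.460 (0.407 to 0.517) and the only one of the 10 past 2-fold, against 38.9% of all genes past it, 20.2% upwards and 18.8% downwards. KDM6B was at 115.7 CPM in SKN3 and 60.21 CPM in Cal27, a ratio of 1.92 (1.79 to 2.06). With scaling to library size alone, KDM6B and not KDM6A was past 2-fold, so which of the pair passes depends on the scaling. KDM6A made up 15.23% of the counts of the pair in SKN3 (95% Wilson interval 13.88% to 16.69%), against 37.90% in BICR78, 43.78% in the untreated knockout and 42.94% in Cal27, and this share does not depend on scaling.

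The accessory subunits JARID2, MTF2 and AEBP2 and the core subunit SUZ12 were higher in SKN3, and EZH2 and EED lower. EZH1 had a ratio of 0.942, with an interval that includes 1. JARID2 was at 80.02 CPM in SKN3 and 43.97 CPM in Cal27, a ratio of 1.82 (1.68 to 1.98). MTF2 was at 43.04 CPM in SKN3 and 27.97 CPM in Cal27 (ratio 1.54), AEBP2 at 62.97 CPM in SKN3 and 42.96 CPM in Cal27 (1.46), and SUZ12 at 92.31 CPM in SKN3 and 68.69 CPM in Cal27 (1.34). EZH2 was at 39.85 CPM in SKN3 and 54.94 CPM in Cal27 (ratio 0.726, 0.660 to 0.796), and EED at 26.80 CPM in SKN3 and 37.84 CPM in Cal27 (0.709). Of the 23 cell cycle genes on a separate list, 8 were more than 2-fold lower in SKN3 and none higher, with a median log2 ratio of -0.62. Over all genes 18.8% were lower and 20.2% higher past 2-fold in SKN3. In BICR78, 1 of the 23 was higher and 1 lower, with a median of -0.29, against 16.1% of all genes higher and 9.89% lower. A link between these genes and the level of EZH2 was not tested.

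In BICR78 the 3 core subunits other than EZH1 were all lower than in Cal27. EZH2 was at 33.63 CPM (31.10 to 36.31) in BICR78 and 54.94 CPM (51.81 to 58.21) in Cal27, a ratio of 0.613. EED was at 21.66 CPM in BICR78 and 37.84 CPM in Cal27 (ratio 0.574), and SUZ12 at 40.02 CPM in BICR78 and 68.69 CPM in Cal27 (ratio 0.583). None of the 10 passed 2-fold, against 26% of all genes, 16.1% upwards and 9.89% downwards. EZH2, EED and SUZ12 passed 1.5-fold, against 45% of all genes, so 3 of 10 is below that share. AEBP2 and KDM6B were higher, at ratios of 1.22 and 1.18, and EZH1, JARID2, MTF2, PHF19 and KDM6A lay within counting error of Cal27, at ratios of 0.960 to 1.06. NSD1, at 80.24 CPM in SKN3, had 9 counts in BICR78 (0.464 CPM, interval 0.212 to 0.881), against 150.3 CPM in Cal27.

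**Figure D3:**
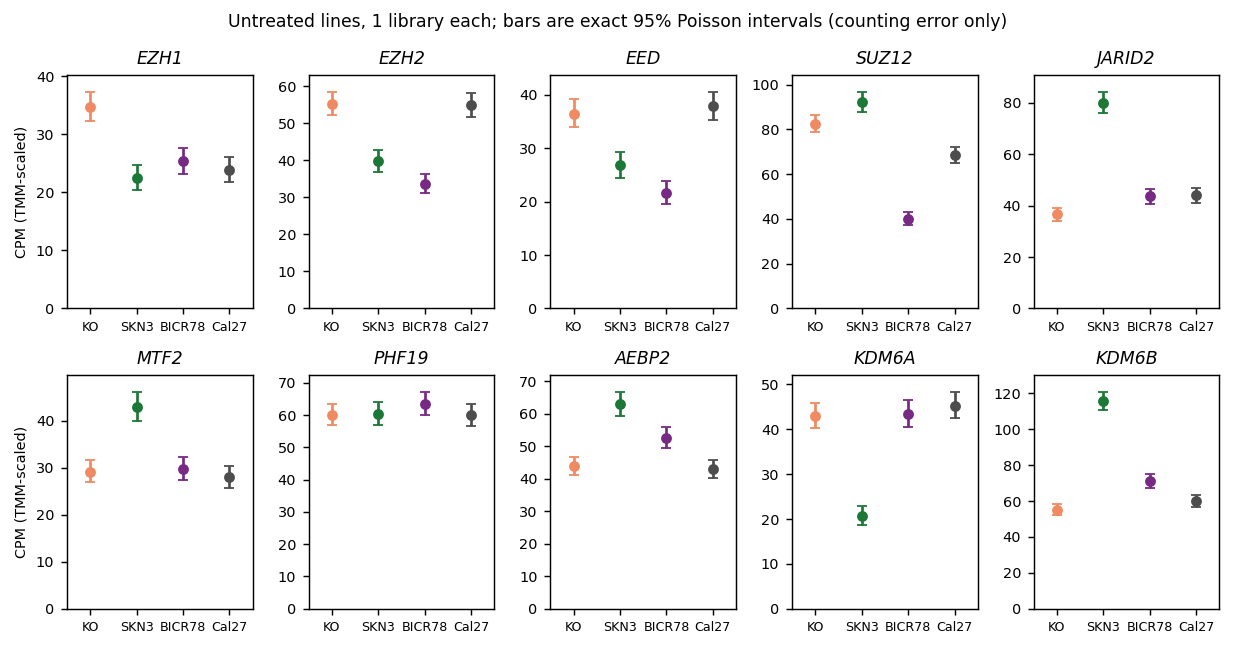
Level of each of the 10 genes (vertical axis, TMM-scaled CPM from 0) in 1 untreated library each of the knockout, SKN3, BICR78 and Cal27 (horizontal axis); bars are 95% Poisson limits for counting error. SKN3 has the lowest KDM6A (20.79 CPM) and the highest KDM6B and JARID2 (115.7 and 80.02 CPM), and BICR78 the lowest EZH2, EED and SUZ12.

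By order of level, EZH2 ran from BICR78 over SKN3 to Cal27 and the knockout, and EED from BICR78 over SKN3 to the knockout and Cal27. In both orders the last 2 lines, the knockout and Cal27, had overlapping intervals and the other steps were apart. For KDM6A, SKN3 was lowest and the knockout, BICR78 and Cal27 above it overlapped each step. For KDM6B the order was the knockout, Cal27, BICR78 and SKN3, with only the first pair overlapping. PHF19 lay between 60.02 and 63.44 CPM and no step was apart.

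The share of EZH1 among the counts of the 2 catalytic subunits was close to level in the DMSO and EPZ set and wider apart in the untreated set. EZH1 made up 29.43% and 28.81% of the EZH1 and EZH2 counts in knockout EPZ libraries, 27.96% and 27.53% in knockout DMSO libraries and 29.23% and 27.33% in Cal27 DMSO libraries. Both EPZ libraries lay above both knockout DMSO libraries, but the Wilson intervals of all 6 overlapped. In the untreated set the share was 38.59% in the knockout (36.46% to 40.76%), 36.06% in SKN3, 43.01% in BICR78 (40.17% to 45.89%) and 30.27% in Cal27 (28.10% to 32.54%). Cal27 had the lowest share of the 4. The untreated knockout reached its share through more EZH1, and SKN3 and BICR78 through less EZH2. Counts are not divided by transcript length, so a share compares libraries and not the amounts of the 2 proteins or transcripts.

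**Figure D4:**
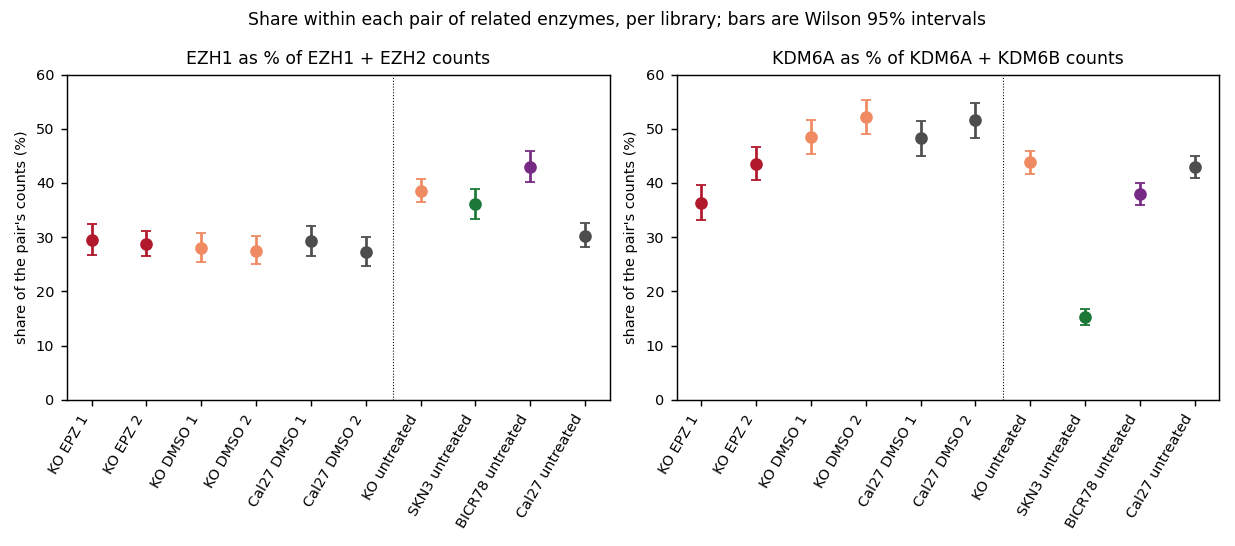
EZH1 as a percent of EZH1 and EZH2 counts (left) and KDM6A as a percent of KDM6A and KDM6B counts (right) in each of 10 libraries (horizontal axis); bars are 95% Wilson intervals and the dotted line parts the DMSO and EPZ set from the untreated set. EZH1 stays between 27.33% and 29.43% in the first 6 libraries, and KDM6A is at 15.23% in SKN3.

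Across all 10 libraries, with log2 levels centred within each set, EZH2 and EED varied together most closely among the 10 genes (Pearson r = 0.977). KDM6A ran against JARID2 (r = -0.918) and KDM6B (r = -0.887), while KDM6B and JARID2 ran together (r = 0.910). These are descriptions over 10 libraries that share depth and scaling, and the 4 untreated lines span most of the range. Among 10969 genes with a mean of at least 5 CPM, those most like EZH2 were VPS26C (r = 0.986), TBC1D22A (0.982), ALDH9A1 (0.982), PPP3R1 (0.980) and FAH (0.980). VPS26C is a subunit of an endosomal sorting complex, PPP3R1 the regulatory subunit of calcineurin and FAH an enzyme of tyrosine breakdown. Within the 6 DMSO and EPZ libraries alone their r with EZH2 was 0.801 to 0.938. Those most like KDM6B were AHCYL2 (0.969), DNASE1 (0.964), TUT4 (0.960) and SRGAP1 (0.960), with r of 0.688 to 0.801 in the 6 libraries.

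The other complexes that read, erase or complement the mark were followed with lists chosen by function. Counts below are of genes passing the same edgeR test, with the median log2 change of the list in each case; the median over all genes was -0.01 for the knockout and 0.00 for EPZ. Over all genes 35.9% passed in the knockout and 49.6% with EPZ, and each count is to be read against these shares. The squamous and immune marker sums given above moved with the same groups, and their part in these list results was not tested.

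Among 6 tested further PRC2 subunits and cofactors, 3 rose and 1 fell in the knockout (median 0.17), and 2 rose and 1 fell with EPZ (median 0.12). These are 4 of 6 against 35.9% of all genes in the knockout and 3 of 6 against 49.6% with EPZ. LCORL, which is related to the PRC2 cofactor made by the LCOR locus, was at 12.78 and 10.80 CPM in knockout DMSO libraries and 4.741 and 6.299 CPM in Cal27 DMSO libraries, a log2 change of 1.09 ± 0.17 (SE; adjusted p = 6.03e-05). EPOP, a cofactor that links PRC2 to elongin, was at 12.48 and 12.53 CPM in knockout EPZ libraries, 7.239 and 6.192 CPM in knockout DMSO libraries and 11.09 and 11.64 CPM in Cal27 DMSO libraries. Of these 6 libraries the knockout DMSO ones were lowest, with log2 changes of -0.76 ± 0.14 for the knockout (SE; adjusted p = 0.000416) and 0.90 ± 0.14 for EPZ (SE; adjusted p = 4.46e-05). In the untreated pair EPOP was at 18.69 CPM in the knockout and 13.60 CPM in Cal27, the other way round, and with that pair added the knockout call was lost (adjusted p = 0.484). LCOR rose with EPZ, by 0.34 ± 0.05 (SE; adjusted p = 4.76e-05). RBBP7, a histone-binding subunit, rose in the knockout (0.14) and fell with EPZ (-0.12). Both comparisons use the same knockout DMSO libraries, so the opposite changes of EPOP and of RBBP7 are not independent. The count of 3 that rose in the knockout was 1 without knockout DMSO replicate 1 and 5 without EPZ replicate 1. The call of LCOR in the knockout was lost with DESeq2 (adjusted p = 0.0662), without Cal27 DMSO replicate 2 (0.0852) and without knockout DMSO replicate 1 (0.0609). That of RBBP7 with EPZ was lost without knockout DMSO replicate 1 (0.111) and without EPZ replicate 2 (0.0974), and that in the knockout without Cal27 DMSO replicate 2 (0.112) and without knockout DMSO replicate 1 (0.0731). The knockout call of RBBP7 was also lost with the untreated pair added (adjusted p = 0.0947), and its EPZ call with genes of at least 5 CPM (0.0526). PHF1, the third Polycomb-like subunit, did not pass in either comparison (adjusted p = 0.0659 with EPZ).

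PRC1, the complex that reads H3K27me3 through its CBX subunits and ubiquitinates histone H2A, had more calls upwards than downwards with EPZ. Of 24 tested subunits, 12 rose and 3 fell (median 0.22), which are 15 of 24 against 49.6% of all genes. BMI1, the PCGF subunit of canonical PRC1, was at 48.81 and 50.32 CPM in knockout EPZ libraries, 22.64 and 27.21 CPM in knockout DMSO libraries and 24.87 and 28.09 CPM in Cal27 DMSO libraries. The EPZ libraries were alone at the high level, and the log2 change with EPZ was 0.99 ± 0.09 (SE; adjusted p = 5.25e-08). CBX2, which compacts chromatin, was at 12.81 and 16.35 CPM in knockout EPZ libraries and 6.314 and 6.696 CPM in knockout DMSO libraries (1.17 ± 0.15, SE; adjusted p = 8.38e-06). RNF2, the ubiquitin ligase, was at 36.84 and 35.18 CPM in knockout EPZ libraries and 24.26 and 25.70 CPM in knockout DMSO libraries (0.52 ± 0.08, SE; adjusted p = 2.99e-05), and PCGF5 rose by 0.41. These 4 were called in 14 of 14 alternatives that test against no change. Of the 3 that fell, L3MBTL2, PHC3 and PCGF6, the count was 1 without knockout DMSO replicate 1, knockout DMSO replicate 2 or EPZ replicate 2, and 0 with DESeq2.

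In the knockout against Cal27, 6 of the 24 PRC1 genes rose and 2 fell (median 0.10), which are 8 of 24 and near the 35.9% of all genes. AUTS2, a subunit of a PRC1 form associated with active genes, was at 7.624 and 8.567 CPM in knockout DMSO libraries and 30.20 and 29.72 CPM in Cal27 DMSO libraries (-1.88 ± 0.11, SE; adjusted p = 6.49e-10), and at 17.23 CPM in the untreated knockout against 72.76 CPM in untreated Cal27. PHC2, a polymerising subunit, rose by 0.47 ± 0.05 (SE; adjusted p = 3.12e-06). With the untreated pair added and the set as a covariate, the number of PRC1 genes that rose was 1. The count of 6 was 3 without Cal27 DMSO replicate 2 and 2 without knockout DMSO replicate 2.

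PR-DUB removes the ubiquitin that PRC1 adds. Of 7 tested subunits, 3 rose in the knockout (ASXL1 by 0.37, MBD5 by 0.48 and MBD6 by 0.24), and none fell; MBD6 did not pass with the untreated pair added (adjusted p = 0.433). With EPZ none rose and 3 fell: BAP1, its catalytic subunit, at 35.74 and 35.69 CPM in knockout EPZ libraries and 44.20 and 47.30 CPM in knockout DMSO libraries (-0.36 ± 0.07, SE; adjusted p = 0.000233), FOXK1 (-0.22) and ASXL1 (-0.12). The call of ASXL1 stood at an adjusted p of 0.0492 and held in 3 of 14 alternatives that test against no change. The 3 of 7 called in each comparison are near the shares of all genes, 35.9% in the knockout and 49.6% with EPZ. Of 9 partners of KDM6A in the KMT2C and KMT2D complexes, 2 rose in the knockout (KMT2D by 0.28 and ASH2L by 0.31, neither with the untreated pair added, at adjusted p-values of 0.157 and 0.283), and 1 rose and 3 fell with EPZ; 2 of 9 is below 35.9% and 4 of 9 is near 49.6%. WDR5, a core subunit, was at 117.8 and 121.8 CPM in knockout EPZ libraries and 150.3 and 147.5 CPM in knockout DMSO libraries (-0.31 ± 0.04, SE; adjusted p = 4.84e-06). KMT2C rose by 0.32, a call lost without knockout DMSO replicate 2 (adjusted p = 0.0586) or EPZ replicate 1 (0.065). KMT2D and PAGR1 fell (-0.14 and -0.18), both calls being lost without knockout DMSO replicate 1 (0.056 and 0.102) or EPZ replicate 2 (0.0512 and 0.22), and that of PAGR1 also without knockout DMSO replicate 2 (0.0617) and with DESeq2 (0.0988).

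EZH2 often follows the expression of cell cycle genes, but such a link was not tested here, and EZH2 did not pass with EPZ. Cell cycle genes had more calls downwards than upwards with EPZ. Of 23 tested, 3 rose and 13 fell (median -0.16), against 25.6% of all genes higher and 23.9% lower. PLK1 was at 127.7 and 137.7 CPM in knockout EPZ libraries and 191.5 and 192.1 CPM in knockout DMSO libraries (-0.53 ± 0.04, SE; adjusted p = 1.18e-08), and AURKA and CCNB1, also of mitosis, fell, with log2 changes of -0.39 and -0.24. E2F2 rose by 1.24, and MKI67 had -0.07 without passing. In the knockout against Cal27, 9 rose and 2 fell (median 0.08), against 16.4% of all genes higher and 19.5% lower, among them TYMS (0.26) and MCM6 (0.23) upwards and E2F2 (-0.89) and PCNA (-0.19) downwards. The count of 9 was 5 without Cal27 DMSO replicate 1 or knockout DMSO replicate 1, 4 without Cal27 DMSO replicate 2 or knockout DMSO replicate 2, 5 with DESeq2 and 0 with the untreated pair added.

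Of 28 developmental regulators known from other cells as PRC2 targets, only 15 had enough counts to be tested, and 8 of the 28 were at 0 in each knockout EPZ library. With EPZ 4 rose and 1 fell (median -0.02), and 5 of 15 is below the 49.6% of all genes. LHX2, a limb and forebrain regulator, was at 2.023 and 1.972 CPM in knockout EPZ libraries and 0.539 and 0.360 CPM in knockout DMSO libraries (2.14 ± 0.44, SE; adjusted p = 0.000689). Its counts were low, at 24 and 31 in knockout EPZ, 7 and 5 in knockout DMSO and 9 and 10 in Cal27 DMSO libraries. LHX2 passed the low-count filter only through the EPZ libraries, so its call, among the 4 upwards, is not independent of that filter. MEIS2 rose by 0.58 and BMP2 by 0.55. The count downwards was 0 with DESeq2, without knockout DMSO replicate 2 and without EPZ replicate 2. In the knockout against Cal27, PAX6 (0.89) and GATA2 (0.9985) rose and BMP4 (-1.67) fell, 2 upwards and 1 downwards of the 15 (median -0.08), and 3 of 15 is below the 35.9% of all genes. The call of BMP4 was lost with the untreated pair added (adjusted p = 0.0819), and without Cal27 DMSO replicate 2 the count downwards was 2.

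**Figure D5:**
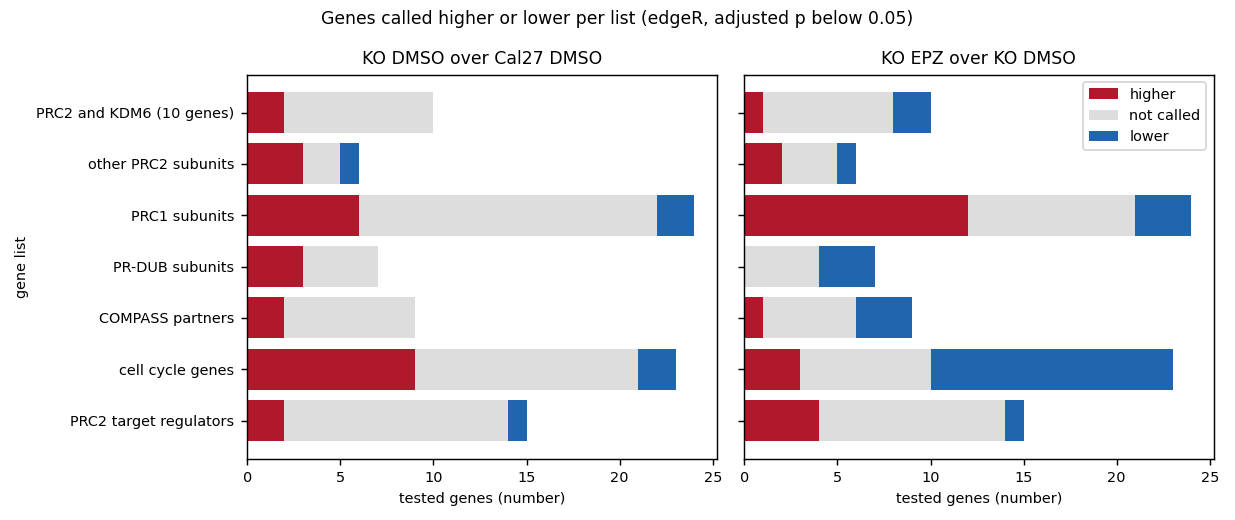
Number of tested genes (horizontal axis) in each list (vertical axis) that passed as higher (red) or lower (blue) or did not pass (grey), for knockout over Cal27, both with DMSO, and for EPZ over DMSO in the knockout. With EPZ, PRC1 subunits have 12 higher and 3 lower of 24, and cell cycle genes 3 higher and 13 lower of 23.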

How the data were processed

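RNA was measured in 10 libraries after TRIzol extraction and ribosomal RNA depletion, per the labels' protocols. The authors deposited raw read counts per gene (whole numbers). Per the submitters' processing notes, the build was hg38, and the tools named are HISAT2 2.1.0, Picard 2.23.1, featureCounts 1.6.1 and CASAVA 1.7. The sources used here do not state their roles, the annotation or the strand setting, so reads of overlapping genes cannot be assigned with certainty. The 7 CUT&Tag samples were not analysed here.

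Groups come from the sample titles. The 6 DMSO and EPZ libraries entered 1 model in edgeR 4.0.16, run in R 4.3.3, after its default filter on low counts (13241 of 34496 genes left), TMM scaling, group as the only term and the quasi-likelihood F test. Calls are p-values below 0.05 after Benjamini-Hochberg adjustment over all tested genes. Log2 changes carry the standard error of the fit. The test was first tried on simulated counts. The 4 untreated libraries have no replicate: they are described by log2 ratios with a prior count of 2 and a 2-fold threshold. Library totals of 11745655 to 21738951 counts set the counting error. Replicates of a group differed by more than counting error.

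Members and lists were chosen with earlier results of these data known. Named genes are the 10 members, NSD1, up to 4 genes per list with the lowest adjusted p in either main comparison, and the 5 genes most correlated with EZH2 and with KDM6B. L3MBTL2, PHC3, PCGF6 and MKI67 were named after their values were seen. Some genes that this rule names are not reported here. Alternatives were DESeq2 1.42.0, other scalings, filters, samples and spread estimates, a replicate block, a threshold on the fold, leaving out each library, and other fold thresholds and prior counts for single libraries. The same alternatives for the other lists were added after seeing the data.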

Additional observations from a re-analysis of the deposited data

Results flagged for a closer look

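KDM6A, knockout against Cal27, differed in direction between the 2 sets of libraries. Both knockout DMSO libraries (36.04 and 37.29 CPM) lay above both Cal27 DMSO libraries (32.68 and 35.72 CPM), with a log2 change of 0.10, while the untreated knockout (43.02 CPM) lay below untreated Cal27 (45.31 CPM), with a log2 ratio of -0.0747. The DMSO difference did not pass the test (adjusted p = 0.326), the interval of the untreated ratio includes no change, and the difference between the sets was not tested.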

How the results depend on the processing

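Members called in the knockout against Cal27 numbered 2, 1 with DESeq2, 4 with library size alone or with only the 2 groups fitted, 0 against a log2 fold of 0.5, 0 with the untreated pair added, and 1 to 3 with a library left out. With EPZ against DMSO they numbered 3, 0 against a log2 fold of 0.5, and 2 to 4 with a library left out. With EPZ against Cal27 they numbered 2, 1 with DESeq2, 6 with library size alone, 4 at 5 CPM or more, 0 against a log2 fold of 0.5, and 1 to 3 with a library left out. With the replicate number as a block, the counts were 2, 3 and 3; the block changed no other call among the 10 genes than that of KDM6B for EPZ against Cal27 (0.20, adjusted p = 0.0407), and the numbers do not pair the libraries (correlations of -0.02, 0.05 and 0.02 between deviations). At a fold of 1.5, 4 members passed in SKN3 and 3 in BICR78, against 58.6% and 45% of 13479 genes, so both counts are below those shares. Scaling to library size alone made 2978 genes higher and 2088 lower in the knockout, against 2169 and 2580, and shifted the median of all genes by less than 0.1; with it 4016 were higher and 2815 lower for EPZ against Cal27, against 3456 and 3428. The test against a log2 fold of 0.5 called 248 genes higher and 618 lower in the knockout, and adding the untreated pair 885 and 1054.

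Of 1202 recomputed values, 23 changed sign, 22 of them for members that passed neither with the main nor with the other setting. For JARID2 in the knockout these were 0.0027 (DESeq2), 0.0032 (DESeq2-type size factors), 0.048 (library size), 0.0058 (no filter), 0.0046 (2 groups) and, with a library left out, -0.061 to 0.057. For KDM6B in the knockout the range with a library left out was -0.0041 to 0.16. With EPZ against DMSO they were 0.022 for EZH2 and 0.023 for EED at 5 CPM or more, and with a library left out the ranges were -0.080 to 0.045 for EZH2, -0.055 to 0.029 for EED and -0.029 to 0.27 for KDM6B. With EPZ against Cal27 they were 0.0046 for MTF2 (library size) and, with a library left out, -0.16 to 0.076 for MTF2, -0.013 to 0.076 for EED and -0.063 to 0.11 for PHF19. MCM6 passed in the knockout but was at -0.025 with the untreated pair added. The causes were not tested.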
